A study of Mus musculus with 2 samples.

Results

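Genes of the hepatoblast, the liver's embryonic epithelial cell, were examined in RNA from macrophages sorted from mouse fetal liver. The set held 38 listed genes for plasma proteins, liver enzymes, liver transcription factors and epithelial proteins. A gene was represented where the platform annotation gave a probe set to that gene alone, and where several such probe sets existed the one with the highest mean deposited signal of both arrays was used. This gave 36 of the 38 genes a probe set, of 18193 genes represented on the array. Trf and Serpina1a had no probe set of their own and were not analysed here.

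The study compared 1 array from c-Maf+/+ (wild type) and 1 from c-Maf-/- (c-Maf KO) C57BL/6J embryos at E15.5. At that age the liver is the main site of blood formation. Both samples were fetal liver cells that carried the surface antigens Mac-1 and F4/80 and were sorted by flow cytometry. c-Maf, encoded by Maf, is a transcription factor, and the stated aim was to find genes with lower expression in macrophages that lack it. The sources used here do not give how many embryos contributed to each sample. With 1 array per genotype no test was possible, so every statement describes these arrays, whose number limits the precision.

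Hepatoblasts arise from foregut endoderm and give rise to hepatocytes and bile duct cells. In the fetus they surround the developing blood cells, and they already secrete most proteins of the plasma, among them albumin, alpha-fetoprotein, transport proteins, protease inhibitors and fibrinogen. Their genes are controlled by a network of liver-enriched factors that includes the HNF1, HNF4, FOXA and C/EBP families. Macrophages are not known as a main source of these plasma proteins.

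The c-Maf KO array was dimmer for most genes. Its median deposited signal was 2.98, against 4.73 in wild type, and the median log2 ratio (c-Maf KO over wild type) was -0.93 over 9238 genes with both arrays above the floor. Control probe sets were brighter in c-Maf KO, with median log2 ratios of 0.24 over 18 hybridisation and 0.48 over 24 poly-A controls. The floor was the median of all values pooled, 3.70 as deposited. Ratios are therefore given on a level-adjusted scale, after quantile normalization, with a floor of 3.75, beside the deposited signals. The same gene measured by different bright probe sets gave deposited log2 ratios that spread by 0.64 (SD, 2871 pairs). Bright meant a mean signal of at least 14.8, and most hepatoblast genes were dimmer. That spread does not include differences between embryos, sorts or hybridisations. The ratio of 3′ to 5′ signal, a measure of RNA length, was 13.3 in wild type and 6.05 in c-Maf KO for Actb, and 1.83 and 0.901 for Gapdh. Its part in the results was not tested. Maf itself read 47.6 in wild type and 0.219 in c-Maf KO, although the position of its probes relative to the deletion is not known.

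Hepatoblast genes were mostly higher on the c-Maf KO array. Of the 36 represented genes, 19 were at least 2-fold higher on the level-adjusted scale and 1, Apoc4, was at least 2-fold lower. Another 8 were within 2-fold with both arrays above the floor, 3 were known only by a bound under 2-fold, and 5 were below the floor on both arrays. Over all genes measured on that scale, 8.34% were at least 2-fold higher and 9.05% at least 2-fold lower; of all represented genes, 6.1% were higher. In 6 of the 19 the wild-type signal was below the floor, so these genes passed the floor only through the c-Maf KO array and their ratios are lower bounds. Where both arrays were above the floor, 13 of 21 hepatoblast genes were at least 2-fold higher, beside 7.62% of all genes. The median level-adjusted log2 ratio was 1.24 over those measured and 1.07 over all 36 with the genes below the floor set to 0, against 0.01 over all 13290 measured genes.

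In deposited signal, where most genes were dimmer in c-Maf KO, 21 of 32 measured hepatoblast genes were brighter in c-Maf KO. Over all genes the share was 15.8%. All 19 genes called higher after level adjustment were also brighter in c-Maf KO as deposited, 7 of them by at least 2-fold, beside 1.19% of all genes. With the hybridisation controls as reference, Apoc2 turned to the other direction, with a log2 ratio of -0.10, and the other 18 kept theirs. Another 8 hepatoblast genes had a lower deposited signal in c-Maf KO and a level-adjusted ratio above 0, and none of these reached 2-fold. Apoc4 and Cdh1 were at least 2-fold lower as deposited, beside 39.8% of all genes. The members were named with earlier results of these arrays known, so their counts are a description and not independent evidence. In RNA from a mixed sample, more cells of a type and more RNA per cell cannot be told apart.

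The share of genes called higher differed with signal, so the hepatoblast genes were also set in 5 signal bins of equal size. In the brightest bin all 3 measured hepatoblast genes, Alb, Afp and Ttr, were at least 2-fold higher, beside 4.97% of its 2658 genes. The next bin held Apoa1, Apoa2, Apoc2, Serpina1b and Krt18, and all 5 were higher, beside 6.51%. In the middle bin 3 of 8 were higher, beside 10.5%, and in the one below it 8 of 13, beside 14.9%. Neither of the 2 genes in the dimmest bin, Fgg and Fah, was at least 2-fold higher there, where the share was 4.89%.

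**Figure D1:**
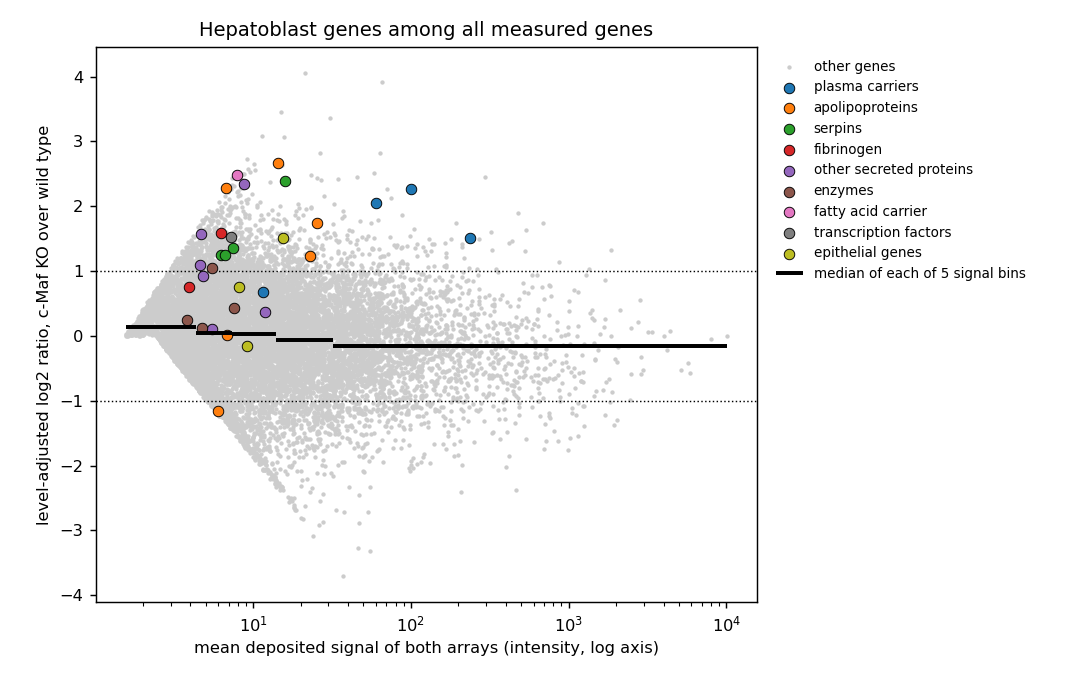
Level-adjusted log2 ratio of c-Maf KO over wild type (1 array each) against the mean deposited signal of both arrays on a log axis, for 13290 genes in grey and 31 hepatoblast genes coloured by group; black bars are the medians of 5 signal bins and dotted lines mark 2-fold. The 8 hepatoblast genes in the 2 brightest bins all lie above the upper line, and Apoc4 is the one below the lower line.

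Promoter sequences of 33 of the 38 genes were in the RefSeq table (GRCm38.p6). The 7 windows below show the 140 bases before the start site, 5′ to 3′ on the gene's strand. They are from members with high ratios in the main groups and from Apoc4, the member that was lower. Capitals mark letters of the HNF1 half-site (GTTAAT), the HNF4 half-site (CAAAGT), the FOXA core (TGTTTNC) and the C/EBP core (TTGCNNAA) on either strand.
Alb, chr5:90460730-90460869, + strand: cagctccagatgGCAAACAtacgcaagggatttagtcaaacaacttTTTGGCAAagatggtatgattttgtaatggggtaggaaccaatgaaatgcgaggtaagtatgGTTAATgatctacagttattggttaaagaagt
Afp, chr5:90490574-90490713, + strand: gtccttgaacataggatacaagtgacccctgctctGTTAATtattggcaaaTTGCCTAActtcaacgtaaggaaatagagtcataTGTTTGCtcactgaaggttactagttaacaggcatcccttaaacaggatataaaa
Apoa1, chr9:46228490-46228629, + strand: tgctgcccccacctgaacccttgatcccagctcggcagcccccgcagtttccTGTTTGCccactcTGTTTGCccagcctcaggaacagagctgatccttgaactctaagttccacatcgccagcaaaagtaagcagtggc
Serpina1b, chr12:103738190-103738329, - strand: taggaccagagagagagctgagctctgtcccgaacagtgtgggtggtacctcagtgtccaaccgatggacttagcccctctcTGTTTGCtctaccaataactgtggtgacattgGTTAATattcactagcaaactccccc
Fga, chr3:83026013-83026152, + strand: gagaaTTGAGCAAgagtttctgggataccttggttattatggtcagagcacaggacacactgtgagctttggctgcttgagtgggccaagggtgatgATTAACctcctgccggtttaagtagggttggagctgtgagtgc
Fabp1, chr6:71199739-71199878, + strand: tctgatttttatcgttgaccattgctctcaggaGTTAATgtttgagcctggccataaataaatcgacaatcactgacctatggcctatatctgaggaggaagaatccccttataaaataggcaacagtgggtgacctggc
Apoc4, chr7:19681461-19681600, - strand: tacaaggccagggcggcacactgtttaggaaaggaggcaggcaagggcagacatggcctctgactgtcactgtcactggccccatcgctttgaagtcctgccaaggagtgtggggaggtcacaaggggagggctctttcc

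The HNF1 half-site began 32 bases before the start in Alb, 105 in Afp, 26 in Serpina1b and 107 in Fabp1, and on the other strand 43 in Fga. Over windows from 250 bases before to 50 after the start, 13 of the 38 promoters listed for those 33 genes (34.2%) held it, beside 7.10% of all 32851 promoters in the table. The FOXA core, which occurs in a pair in the Apoa1 window, was in 19 of these 38 promoters (50%, beside 20.5% of all). The C/EBP core was in 14 (36.8%, beside 10.8%) and the HNF4 half-site in 11 (28.9%, beside 14.4%). The half-site of the Maf recognition element, TGCTGA, was in 8 (21.1%, beside 19.5% of all), and the TATA box TATAAA also in 8 (21.1%, beside 13.6%). The letters of the FOXA and C/EBP cores can overlap each other, as they do in Fabp1, where the Maf half-site overlaps the C/EBP core too. None of the 6 motifs was found in the windows of 6 genes, among them Apoc4, which was lower, and Serpinf2 and Otc, which were higher; the others were Fgg, Hpd and Fah. A match is a description of these letters and not of a bound site.

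Of the 5 represented plasma carrier genes, 3 were at least 2-fold higher in c-Maf KO. Alb encodes albumin, the main protein of adult plasma, and its only probe set read 63.8 in wild type and 136 in c-Maf KO. The level-adjusted log2 ratio was 2.27, and the deposited ratio 1.10. Afp, its neighbour on chromosome 5, encodes alpha-fetoprotein, the fetal counterpart of albumin, and went from 209 to 268 (level-adjusted 1.51, deposited 0.36). Ttr, which encodes the thyroid hormone and retinol carrier transthyretin, went from 42.0 to 77.8 (2.06 and 0.89). By the probe sets used, these 3 genes were higher in c-Maf KO on both scales. Alb and Ttr were above 99% of measured genes in level-adjusted ratio, at percentiles 99.7 and 99.6.

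The other 2 carrier genes were not called. Rbp4, the plasma carrier of retinol and a binding partner of transthyretin, read 12.7 in wild type and 10.4 in c-Maf KO, lower as deposited (-0.28) and above 0 after level adjustment (0.68). Hpx encodes hemopexin, which binds free heme, and lay below the floor on both arrays (0.206 and 1.33). The group median was 1.78 over its 4 measured genes.

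**Figure D2:**
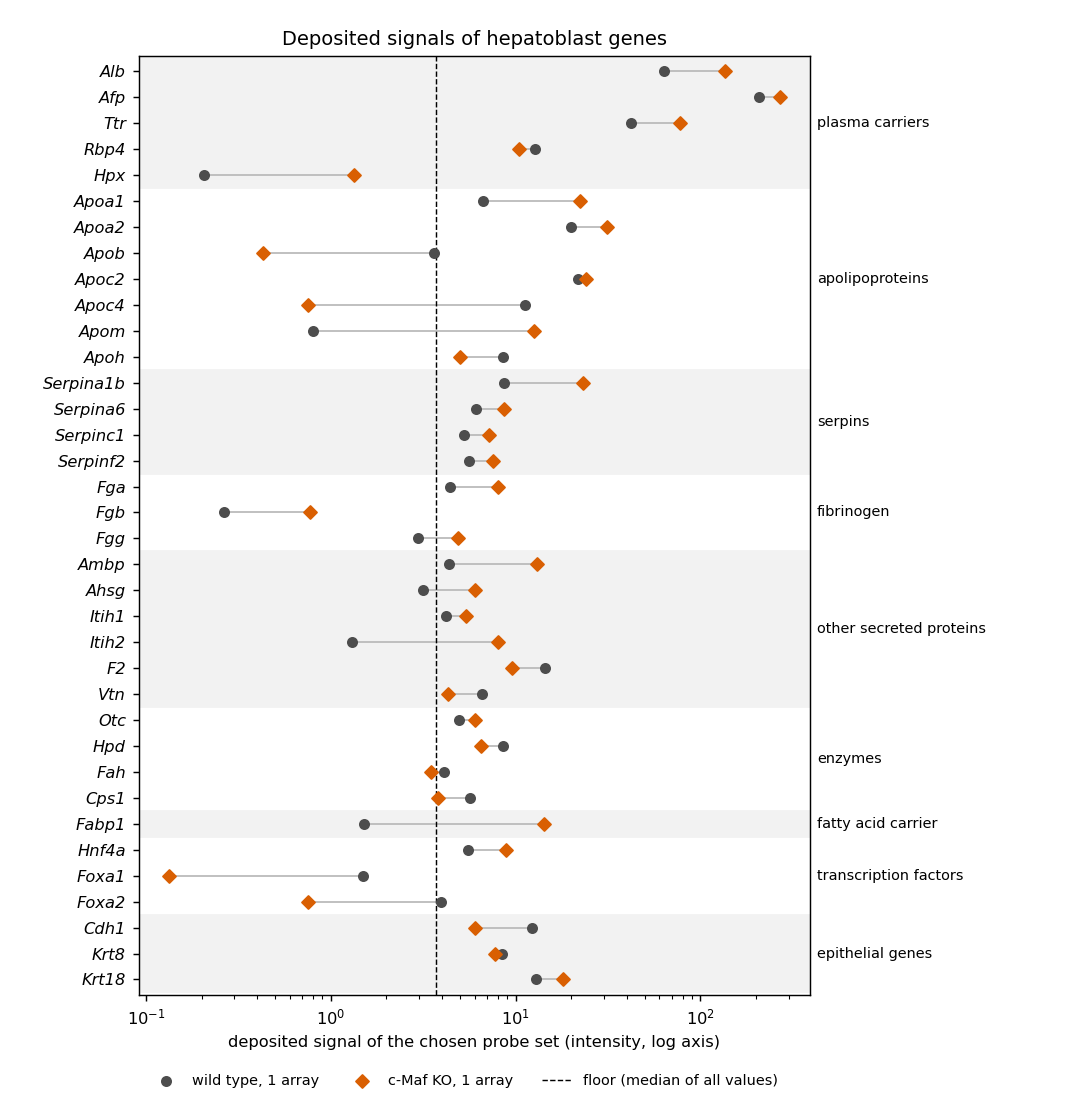
Deposited signal on a log axis of the probe set that represents each of 36 hepatoblast genes, grouped by role, with circles for the wild-type array and diamonds for the c-Maf KO array (1 each); the dashed line is the floor of 3.70. Alb, Afp, Ttr, Apoa1 and Apom are among the genes with the diamond to the right of the circle, and 21 of the 32 genes above the floor on 1 or both arrays do so.

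Apolipoprotein genes differed among themselves. Apoa1, which encodes the main protein of high density lipoprotein, read 6.69 in wild type and 22.2 in c-Maf KO, with a level-adjusted log2 ratio of 2.67 (deposited 1.73). That ratio lay at percentile 99.9 of all measured genes. Apoa2, another protein of high density lipoprotein, went from 19.96 to 31.1 (1.74, deposited 0.64). Apoc2 encodes the activator of lipoprotein lipase and went from 21.7 to 23.9 (1.23, deposited 0.14), so its deposited readings differed by 1.10-fold. Apom, which encodes a carrier of sphingosine-1-phosphate, read 0.798 in wild type, under the floor, and 12.6 in c-Maf KO, at least 4.87-fold higher.

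The remaining 3 apolipoprotein genes were not higher. Apoc4 read 11.2 in wild type and 0.754 in c-Maf KO, below the floor there, and was at least 2.23-fold lower after level adjustment and at least 3.03-fold lower as deposited. It lies on chromosome 7 in a row with Apoc2, Apoc1 and Apoe. Apoc1 and Apoe were within 2-fold, with level-adjusted ratios of 0.51 and 0.64, so the 4 genes of the row ran from -1.16 to 1.23. Apoh encodes beta-2-glycoprotein I, a phospholipid-binding plasma protein, and went from 8.54 to 5.04 (0.02, deposited -0.76). Apob, the structural protein of very low and low density lipoproteins, was below the floor on both arrays, at 3.60 and 0.429. The group median was 1.49 over 6 measured genes.

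All 4 represented serpin genes were higher in c-Maf KO. Serpins are protease inhibitors that trap their target by a change of shape, and some members carry hormones instead. Serpina1b, one of the mouse genes for alpha-1-antitrypsin, the inhibitor of neutrophil elastase, read 8.62 and 23.1, with a level-adjusted log2 ratio of 2.38 (deposited 1.42). Its probe sets have the suffix _x, which marks probes that may also detect near-identical genes, so its reading may include other Serpina1 copies. Serpina6 encodes the corticosteroid carrier transcortin and went from 6.13 to 8.69 (1.35). Serpinc1, which encodes antithrombin, went from 5.27 to 7.16 (1.24). Serpinf2, which encodes the plasmin inhibitor alpha-2-antiplasmin, went from 5.62 to 7.56 (1.24). The last 3 were less than 2-fold higher as deposited, with ratios of 0.50, 0.44 and 0.43, and their wild-type signals were close to the floor of 3.70. The group median was 1.30.

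Fibrinogen, the clotting precursor of fibrin, is built of 3 chains whose genes lie side by side on chromosome 3. Fga, the alpha chain gene, read 4.39 in wild type and 8.05 in c-Maf KO. On the level-adjusted scale its wild-type value was below the floor, so it was at least 3.005-fold higher, and the deposited log2 ratio was 0.87. Fgg, the gamma chain gene, read 2.98 in wild type, under the floor, and 4.86 in c-Maf KO, at least 1.69-fold higher. Fgb, the beta chain gene, read 0.265 and 0.770, both below the floor. Both chain genes that passed the floor did so on the level-adjusted scale through the c-Maf KO array alone.

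Among the other secreted proteins 3 of 6 genes were at least 2-fold higher. Ambp encodes the precursor of alpha-1-microglobulin and of bikunin, the protease inhibitor that joins the inter-alpha-trypsin inhibitor heavy chains. It read 4.38 in wild type and 13.02 in c-Maf KO, at least 5.05-fold higher after level adjustment (deposited log2 ratio 1.57). Itih2, one of those heavy chain genes, read 1.31 in wild type, under the floor, and 8.01 in c-Maf KO, at least 2.98-fold higher. Itih1, another heavy chain gene, went from 4.20 to 5.39, at least 1.90-fold higher. Ahsg encodes fetuin-A, a fetal plasma protein that keeps calcium salts in solution, and went from below the floor (3.16) to 6.00, at least 2.14-fold higher.

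The other 2 of these genes were dimmer in c-Maf KO as deposited. F2 encodes prothrombin and went from 14.4 to 9.51 (level-adjusted 0.37, deposited -0.60). Vtn encodes the adhesion protein vitronectin and went from 6.62 to 4.29 (0.11, deposited -0.63). Neither reached 2-fold on either scale.

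**Figure D3:**
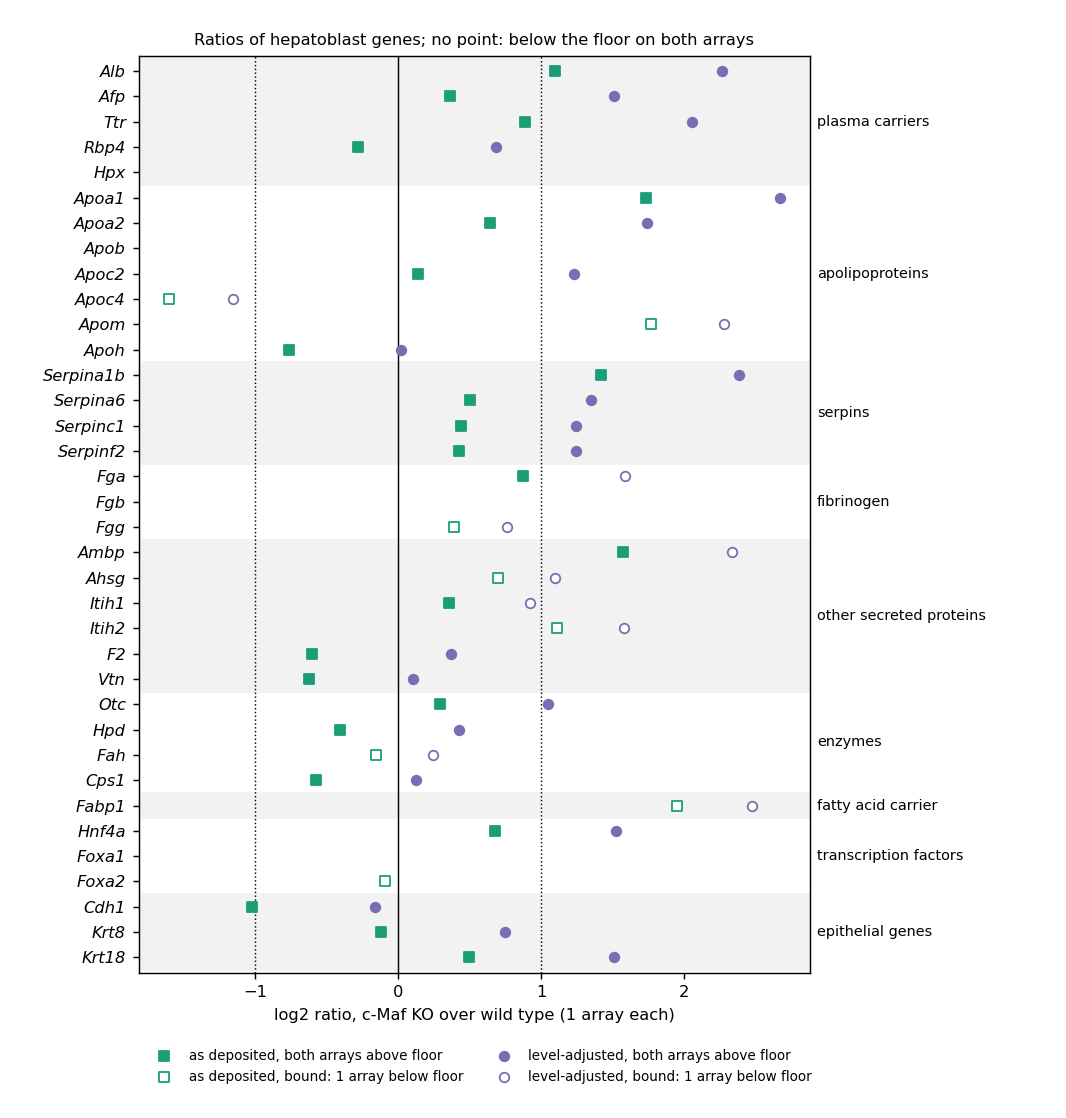
Log2 ratio of c-Maf KO over wild type (1 array each) for 36 hepatoblast genes, as deposited (squares) and level-adjusted (circles); open symbols are bounds, where 1 array was below the floor, and dotted lines mark 2-fold. Circles of Apoa1, Fabp1, Serpina1b, Ambp, Apom, Alb and Ttr lie above 2, and Hpx, Apob, Fgb and Foxa1 have no point because both arrays were below the floor.

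Enzyme genes were close to the floor and mostly within 2-fold. Otc encodes the urea cycle enzyme ornithine transcarbamylase and read 4.94 and 6.06, a level-adjusted log2 ratio of 1.05 (deposited 0.29). Cps1, whose product makes the first intermediate of that cycle, went from 5.68 to 3.82 (0.12, deposited -0.57). Hpd and Fah act in tyrosine breakdown. Hpd went from 8.56 to 6.47 (0.42, deposited -0.40), and Fah from 4.11 to 3.50, at least 1.19-fold higher after level adjustment and at least 1.11-fold lower as deposited. The median of the 4 enzyme genes was 0.33 level-adjusted and -0.28 as deposited, so the sign of the group rests on the scale. Fabp1, which encodes the fatty acid carrier of the hepatocyte cytosol, read 1.51 in wild type, under the floor, and 14.3 in c-Maf KO, at least 5.57-fold higher.

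Of the 3 transcription factor genes, Hnf4a was the one measured on the level-adjusted scale. It encodes a nuclear receptor that maintains the hepatocyte program, and read 5.55 in wild type and 8.89 in c-Maf KO (1.52, deposited 0.68). Foxa1 and Foxa2, which encode pioneer factors of the foregut, read 1.49 and 3.94 in wild type and 0.134 and 0.751 in c-Maf KO. Both were below the level-adjusted floor on both arrays, and the wild-type value of Foxa2 was just above the deposited floor.

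Epithelial genes were mixed. Krt18, a keratin gene of simple epithelia, went from 12.8 to 18.1 (1.51, deposited 0.50). Krt8, which encodes its filament partner and lies next to it on chromosome 15, went from 8.46 to 7.79 (0.75, deposited -0.12). Cdh1, which encodes the adhesion molecule E-cadherin, went from 12.3 to 6.07, which is 2.03-fold lower as deposited and within 2-fold after level adjustment (-0.16). It was the measured gene with the lowest level-adjusted ratio after Apoc4.

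Other probe sets of the same genes gave a second reading from the same arrays for 12 genes. The 36 genes had 59 probe sets, and of the 47 measured on the level-adjusted scale 28 were at least 2-fold higher and 1 at least 2-fold lower. Over all 22608 measured probe sets with 1 gene, the shares were 8.71% and 8.82%. Among the 23 that did not represent their gene, 16 were measured, 9 of them at least 2-fold higher and 0 at least 2-fold lower. All 4 Ttr probe sets were higher, with level-adjusted ratios from 1.91 to 2.25. Those of Apoa1 were at 2.02, 1.86 and 0.62 (a bound) beside 2.67. The other Serpina1b probe set was at least 5.86-fold higher, going from 2.39 to 15.0, and the other one of Apom at least 3.72-fold higher.

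Some genes were not read alike by their probe sets. Afp had ratios of 2.21, 1.44 and 0.50 beside 1.51, and another probe set lay below the floor on both arrays. The Afp probe set at 0.50 went from 8.57 to 6.78, lower in c-Maf KO as deposited (-0.34). The other Fabp1 probe set went from 7.43 to 4.52 (0.03, deposited -0.72), so the higher reading of Fabp1 rests on 1 of 2. A further Otc probe set went from 6.81 to 3.60 (-0.20), against 1.05 for the one used. For Hnf4a a dimmer probe set read 3.84 and 3.95, and another 2 were below the floor on both arrays. Krt8 had ratios of -0.26 and 0.07 beside 0.75.

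**Figure D4:**
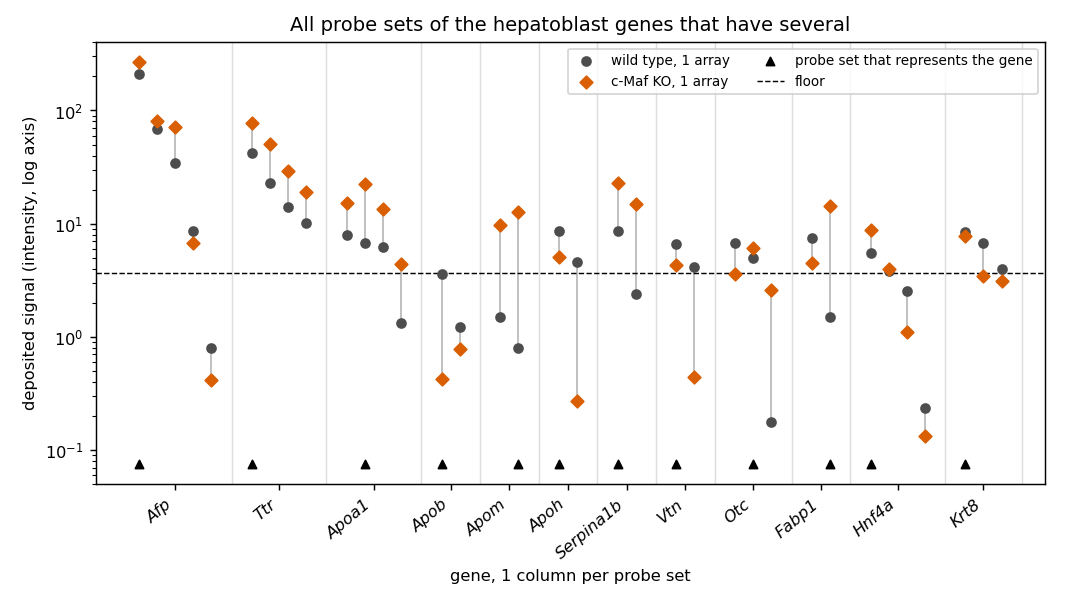
Deposited signal on a log axis of every probe set of the 12 hepatoblast genes that have several, with circles for wild type and diamonds for c-Maf KO (1 array each); triangles mark the probe set that represents the gene and the dashed line is the floor of 3.70. The diamonds lie above the circles in all 4 columns of Ttr and of Apoa1, whereas the columns of Afp, Fabp1, Otc and Hnf4a run in both directions.

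Liver genes outside the set were also examined in 9 lists, chosen for their roles with earlier results of these arrays known. Of 113 listed genes 96 had a probe set, and 42 of these were below the floor on both arrays. Among the 54 measured, 7 were at least 2-fold higher and 3 at least 2-fold lower, beside 8.34% and 9.05% of all genes, and their median level-adjusted ratio was 0.27. Counted over represented genes, 7.29% of the other liver genes and 52.8% of the hepatoblast genes were called higher, beside 6.1% of all represented genes. That difference was not tested.

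The higher genes of these lists lay in several of them. Igfbp1, whose product binds insulin-like growth factors in plasma, went from 0.660 to 41.8 and was at least 16.7-fold higher. Igf2, the fetal growth factor, went from 28.3 to 46.9 (1.85). The tyrosine breakdown gene Gstz1 was at least 2.83-fold higher, and the pyruvate kinase gene Pklr, which red cell precursors also express, had a ratio of 1.35. Dlk1, a surface protein of hepatoblasts, had a ratio of 1.12, and Serpina10 and Ppara were at least 2.17-fold higher.

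Genes of these lists that were lower included Met, the hepatocyte growth factor receptor (33.8 to 6.52, -1.38). Epcam, an epithelial adhesion molecule, read 13.8 and 2.80, the latter under the floor, which is at least 2.67-fold lower. Nags, of the urea cycle, was at least 2.08-fold lower. No gene of the other apolipoprotein, coagulation and complement lists was called in either direction (0 of 4, 0 of 8 and 0 of 7 measured, some of them known only by a bound). Haptoglobin, encoded by Hp, which maturing granulocytes also express, went from 172 to 57.9 (-0.38).

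**Figure D5:**
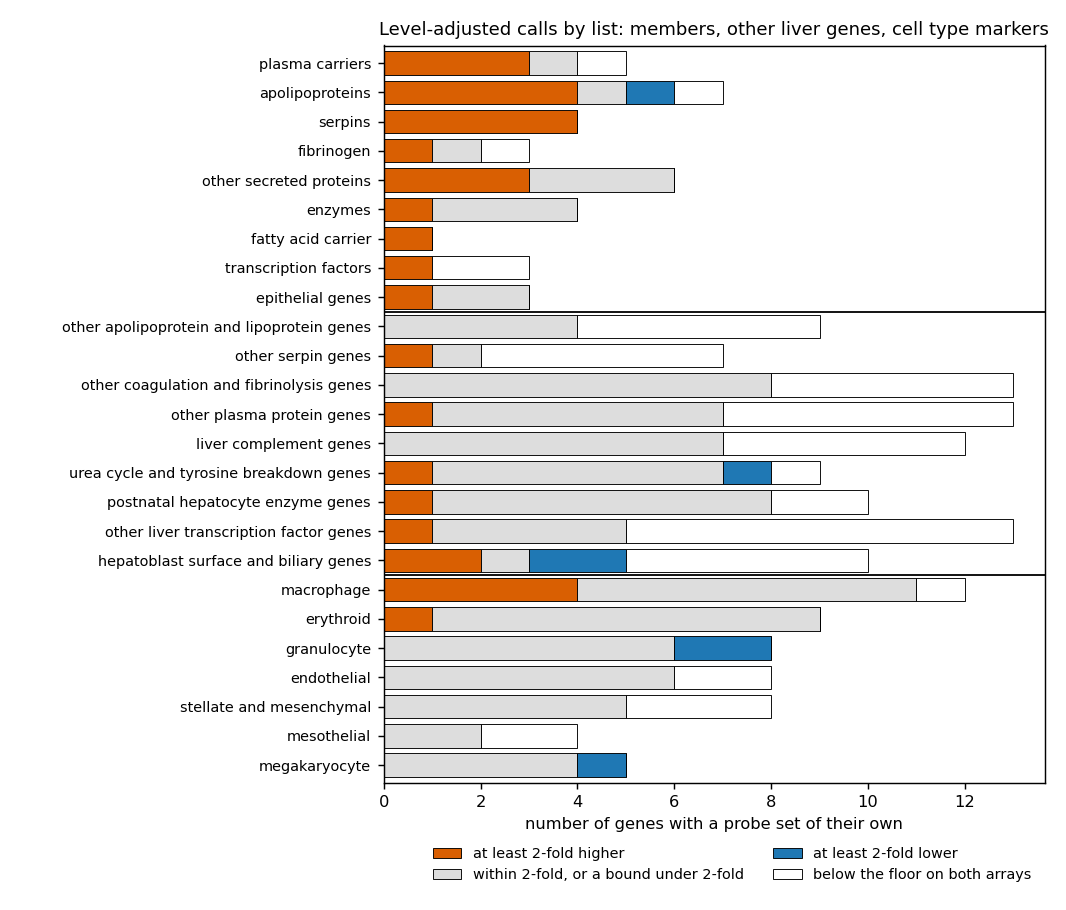
Number of genes at least 2-fold higher, within 2-fold or known by a bound under 2-fold, at least 2-fold lower, or below the floor on both arrays, after level adjustment (1 array per genotype). The upper block shows the 9 groups of hepatoblast genes, the middle block 9 lists of other liver genes and the lower block 7 lists of cell type markers; all 4 serpin genes and 4 of 7 apolipoprotein genes are in the higher class.

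Markers of other cells that a fetal liver sort could hold were read on the same arrays. The summed deposited signal of the hepatoblast genes was 536 in wild type and 772 in c-Maf KO. Much of it came from the brightest genes: Afp gave 209 and 268, Alb 63.8 and 136, and Ttr 42.0 and 77.8. For the 12 macrophage markers the sum was 1462 and 749, for 9 erythroid markers 8627 and 5505, and for 8 granulocyte markers 14810 and 8567. The sums of the endothelial, stellate and mesenchymal, mesothelial and megakaryocyte lists were lower in c-Maf KO too, at 64.4 and 39.0, 38.7 and 33.3, 14.2 and 5.55, and 163 and 92.95. The sum of the hepatoblast set was thus higher in c-Maf KO and those of the 7 marker lists lower, while the sum over all represented genes went from 777028 to 382538. Counted by gene, 3 of 5 measured stellate and mesenchymal markers (60%) were brighter in c-Maf KO as deposited, with a median log2 ratio of 0.22. That share was 65.6% for hepatoblast genes and 15.8% for all genes. Over all other liver genes the sum went from 1092 to 723. Only the list of hepatoblast surface and biliary genes had a higher sum (66.9 and 68.7), of which Igfbp1 gave 0.660 and 41.8. The median level-adjusted ratio of that list was -0.46. Within the hepatoblast set the sums of the enzyme (23.3 and 19.9), transcription factor (10.97 and 9.77) and epithelial genes (33.6 and 32.0) were lower.

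After level adjustment, 4 of 11 measured macrophage markers were at least 2-fold higher and 0 lower, beside 8.34% and 9.05% of all genes. As deposited, 0 of 11 were higher and 3 lower (Csf1r, Mertk and Marco), beside 1.19% and 39.8%, so the tally of this list rests on the scale. Adgre1, which encodes F4/80, went from 71.4 to 48.1 (0.60), Csf1r, the receptor of the main macrophage growth factor, from 625 to 248 (-0.24), and Itgam, which encodes a chain of Mac-1, from 5.76 to 3.94 (0.16). The higher macrophage markers were Cd68 (1.43), Siglec1 (1.29), Fcgr1 (1.21) and Aif1 (1.10). Of 9 measured erythroid markers 1 was at least 2-fold higher, Klf1 (1.53), and the list median was 0.25. Of 8 granulocyte markers 2 were at least 2-fold lower, Camp (-1.62) and Mpo (-1.19), with a list median of -0.56. Gp9 was the 1 of 5 megakaryocyte markers called, at least 2.93-fold lower, and the median of that list was 0.20. No measured endothelial, stellate and mesenchymal or mesothelial marker reached 2-fold (0 of 6, 0 of 5 and 0 of 2). The medians of these lists were 0.12, 0.73 and -0.09, and 3 of the 5 stellate and mesenchymal ratios were lower bounds. The part of the cell makeup of the sorted samples in the hepatoblast values was not tested.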

How the data were processed

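The deposited table gave 1 intensity per probe set and array. The authors' summarisation and scaling are not given in the sources used here; Affymetrix GeneChip hybridisation of biotin-labelled RNA is stated per the labels' protocols. Of 45101 probe sets, 64 were controls and 34945 had 1 gene symbol, 34741 of which were updated through Entrez identifiers (GRCm38.p6 gene table). Both arrays were quantile normalized on the log2 scale, which was adopted after a first run on the linear scale had been seen, because its counts over all genes matched earlier processing of these data, with Python 3.11.15 (pandas 2.3.3, numpy 2.4.6), values were raised to the 50th percentile of all normalized values, and log2 ratios of c-Maf KO over wild type were taken. Genes at or above this floor on at least 1 array (13290) were counted as measured; a gene below it on 1 array has only a bound. Members and lists were chosen with earlier results of these data known. All members were named, with Maf, Adgre1, Csf1r and Itgam, up to 4 genes per other list by absolute ratio, and up to 4 of the brightest where a level is discussed. Alternatives covered 4 other scalings, 2 other floors, a pseudocount, the choice of probe set, the fold, the brightness and, added after seeing the data, the linear scale. Normalization and calling were tested on simulated arrays, with a constant shift and only bright probe sets changed. That test does not cover changed genes near the floor. No test, p-value or interval was possible with 1 array per genotype.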

Additional observations from a re-analysis of the deposited data

How the results depend on the processing

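With 1 array per genotype there was no replicate to leave out. No paired analysis was possible because each genotype had 1 sample. As deposited, 7 hepatoblast genes were at least 2-fold higher and 2 lower, with a median of 0.41, and group medians were 0.63 for plasma carriers, 0.39 for apolipoproteins, 0.47 for serpins, 0.29 for transcription factors and -0.12 for epithelial genes; other liver genes had 2 higher, 11 lower and a median of -0.48. Over all genes as deposited, 1.19% were higher and 39.8% lower, with a median of -0.79. With hybridisation controls as reference the hepatoblast counts were 6 and 3 and the median 0.19. Over all genes 0.765% were then higher and 49.5% lower, with a median of -0.99. Apolipoproteins then turned to -0.094, and Apoc2 to -0.10, and the other medians were 0.38 for plasma carriers, 0.23 for serpins, 0.46 for fibrinogen, 0.35 for other secreted proteins, -0.46 for enzymes, 0.11 for transcription factors and -0.36 for epithelial genes. Other liver genes there had 1 higher, 16 lower and a median of -0.72. Centred ratios gave 21 higher and 0 lower hepatoblast genes, and 12 higher and 1 lower among other liver genes, beside 13.9% and 8.22% of all genes. Equal medians left the hepatoblast counts at 17 and 1, beside 4.74% and 16.3% of all genes. Quantile normalization on the linear scale, the setting run first and listed as an alternative after seeing the data, gave 19 and 1, a median of 1.28 and a floor of 3.85, with 8.82% of all genes higher and 9.4% lower.

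With the floor at the 25th percentile 21 of 36 measured hepatoblast genes were higher and 3 lower, beside 17.7% and 17.7% of all genes. Among other liver genes 27 were then higher and 11 lower. Fabp1 was at 4.20 and transcription factors at -0.15, a reversal that comes with Foxa1 and Foxa2 passing this floor. At the 65th percentile 13 of 28 measured hepatoblast genes were higher and 0 lower, beside 6.01% and 7.78% of all genes. Other liver genes had 4 higher and 1 lower there. Fibrinogen was at 0.46 and Fabp1 at 1.77. The mean over probe sets put Fabp1 at 1.26. Without suffixed probe sets 12 of 22 measured hepatoblast genes were higher, with a median of 1.24, beside 8.64% of all genes. Ttr, Apoa1, Apoa2, Serpina1b, Ahsg, Vtn, Otc, Hnf4a and Krt8 had no measured value in that setting. Among other liver genes 4 were higher, and apolipoproteins, without Apoa1 and Apoa2, were at 0.63. At 3-fold 9 hepatoblast genes were higher and 0 lower (other liver genes 2 and 0), at 4-fold 7 and 0 (1 and 0), and at 1.5-fold 14 other liver genes were higher and 5 lower. Among genes with a brighter signal of 4 times the floor or more, 11 hepatoblast genes were higher and 0 lower (other liver genes 3 and 1). Shares over all genes are not given for these folds or this brightness. Of 329 single-gene ratios under the alternatives, 263 moved by less than 0.64, the spread between bright probe sets of a gene, and 66 by that or more. The sign changed in 18 of them, over 9 genes, of which Apoc2 was the one called at 2-fold. Ratios of genes with a dim signal on 1 array are limited by the floor, as the values of Fabp1 show.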
